A study of Mus musculus with 2 samples.

Results

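The genes described here mark or build the blood vessels of the brain: genes of the endothelium that lines the vessels, genes of the tight junctions between endothelial cells, transporters of the blood-brain barrier, and genes of the mural cells (pericytes and smooth muscle cells) that wrap the vessel wall. They were chosen by name from a fixed list of 39 symbols. Of these, 37 were matched to 1 Ensembl gene each among the 43346 Ensembl genes of the deposited tables: 20 of 21 endothelial genes, all 4 tight junction genes, all 6 transporters and 7 of 8 mural cell genes. Gpr124 is listed under its later symbol Adgra2. The antisense RNAs Robo4os and Kcnj8os had no identifier of that name in the gene annotation used here, so no value is given for them. Their sense partners are other genes and do not stand in for them.

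RNA was measured in hindbrain, the most caudal region of the developing brain, dissected from mouse embryos of the B6NCrl strain at day 12.5. Both libraries belong to 1 group, with no treatment and no other genotype. Replicate 1 was made from a pool of 120 embryos and replicate 2 from a pool of 88, each pool with both sexes, and each library started from 10 ng of RNA longer than 200 nt. With 1 group there is no condition to compare, so the levels of the genes with their replicate spread are the result, and every p-value compares 2 libraries.

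Vessels grow into the hindbrain from a plexus on its surface. Endothelial cells there follow vascular endothelial growth factor (VEGF) made by neural cells, and neural Wnt7a and Wnt7b, sensed through Gpr124 and Reck on the endothelium, switch on barrier properties. Endothelial PDGF-B recruits pericytes, which carry its receptor, and the barrier matures as tight junction proteins and transporters accumulate and as the fenestral protein Plvap is lost.

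The libraries held 31633169 and 29766460 expected counts, which are estimated numbers of fragments. Levels are given as TPM, transcript abundance corrected for length and scaled to 1 total in each library, so that genes can be compared. All 8 endothelial markers and all 6 pericyte markers were present at 1 TPM or more in both libraries, as were all 5 markers of hindbrain neural tissue. The 6 pericyte markers do not stand for every mural cell gene. In the list of 13 other mural cell genes read further below, 11 reached 1 TPM in both libraries. Those that did not were Higd1b, with 1 and 0 counts, and Atp13a5, at 0.18 and 0.13 TPM, the latter named after its values were seen. Markers of meninges, blood, microglia, choroid plexus and skeletal muscle were present too, so the tissue is a mixture. In such a mixture fewer cells of a type and less RNA per cell cannot be told apart. Of 4 smooth muscle markers 3 reached 1 TPM in both libraries, and the 4 summed to 55.5 and 103 TPM. The exception was smooth muscle myosin Myh11, the defining marker of mature smooth muscle, at 0.23 and 0.55 TPM.

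Nearly every vessel gene was expressed in the hindbrain at this age, most of them at moderate levels. Of the 37 genes, 36 reached 1 TPM in both libraries, where 35.5% of all Ensembl genes and 63.0% of protein-coding genes did so. The exception was the drug efflux pump Abcb1a. At 10 TPM or more in both libraries stood 21 genes, and at 20 TPM or more stood 15. Together the 37 genes made up 0.0670% of the TPM of replicate 1 and 0.0726% of that of replicate 2. The median coefficient of variation of the 37 genes over the libraries was 7.73%.

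The classes stood at different levels. The median endothelial gene was at 16.6 and 16.4 TPM (16.5 ± 0.194, SD, n = 2). The median tight junction gene was at 24.1 and 25.8 TPM (24.9 ± 1.23), and the median transporter at 23.6 and 24.4 TPM (24.0 ± 0.562). The median mural cell gene was lowest, at 4.72 and 4.99 TPM (4.86 ± 0.191). Within each library the endothelial median exceeded the mural median, by 1.62 and 1.53 on the log2(TPM + 1) scale (1.58 ± 0.0648, n = 2). The classes hold few genes of unlike function, so these medians describe the chosen genes and not the number of cells.

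**Figure D1:**
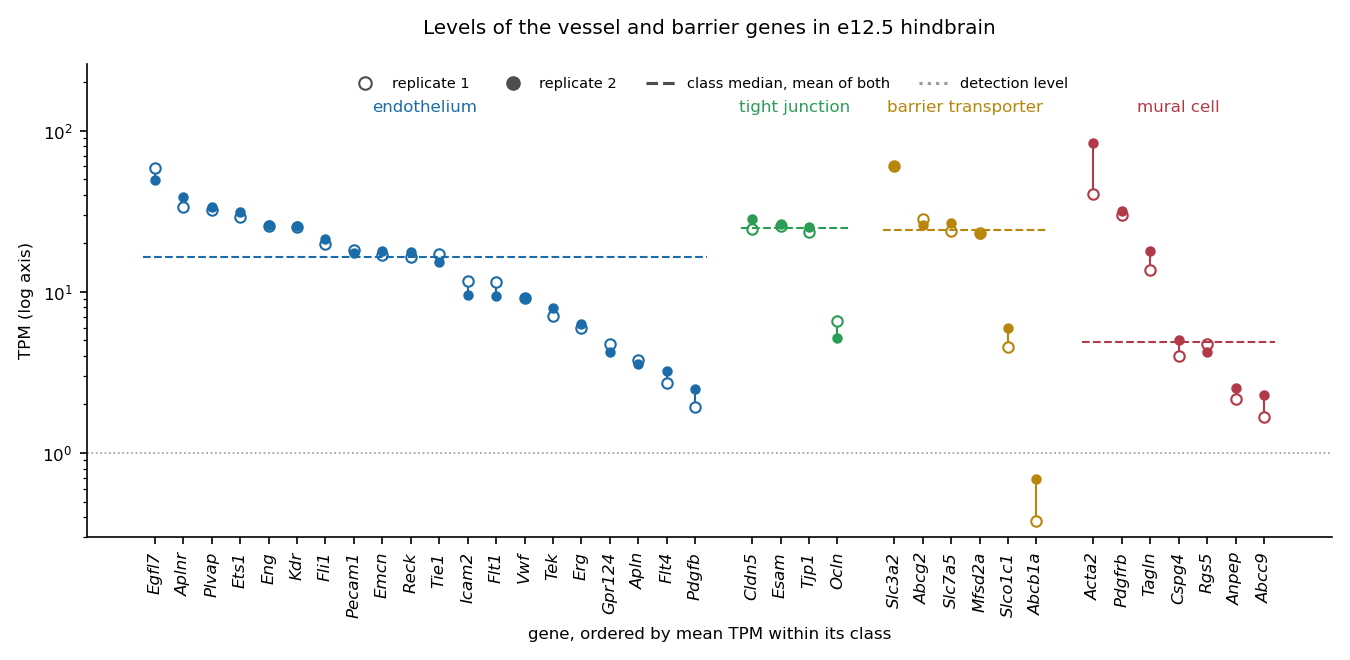
TPM of each of the 37 genes on a log axis, grouped by class and ordered by mean level. Open circles are replicate 1, filled circles replicate 2, dashed lines the mean of the class medians over both libraries and the dotted line 1 TPM. All genes except Abcb1a lie above the dotted line in both libraries, and Acta2, at 40.5 and 83.3 TPM, shows the widest gap of the 36 genes above that line.

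Among the endothelial genes, Egfl7, which encodes a secreted vessel protein, had the highest TPM. That rank counts all its transcripts, of which coding ones held 62.18% and 64.22% and intron-retaining ones 33.15% and 29.75%. Egfl7 (chromosome 2, 26580014 to 26593120, plus strand, mm10) stood at 58.9 and 49.7 TPM, a mean above that of 76.0% of the 13520 protein-coding genes detected. Its gene carries the microRNA gene Mir126a, which was listed at 0 counts in these libraries of RNA longer than 200 nt. Next came the apelin receptor Aplnr (chromosome 2, 85136225 to 85139923) at 33.7 and 38.9 TPM, and the fenestral diaphragm protein Plvap (chromosome 8, 71497765 to 71511752) at 32.0 and 33.8 TPM. The endoglin gene Eng, a co-receptor for TGF-beta ligands, was at 25.8 and 25.9 TPM. The platelet-endothelial adhesion molecule Pecam1 was at 18.2 and 17.4 TPM, the sialomucin Emcn at 16.9 and 17.8 TPM, and the adhesion molecule Icam2 at 11.7 and 9.59 TPM. The clotting protein gene Vwf was lower, at 9.10 and 9.20 TPM.

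Of the 3 VEGF receptors, Kdr (VEGFR2), the main signalling receptor for VEGF-A, was the highest. Kdr (chromosome 5, 75932827 to 75978458, minus strand) was at 25.4 and 25.7 TPM, with nearly the same value in both pools. Flt1 (VEGFR1, chromosome 5, 147561604 to 147726011, minus strand), which binds VEGF-A tightly and signals weakly, was at 11.5 and 9.48 TPM. Flt4 (VEGFR3), the receptor for VEGF-C, was at 2.72 and 3.23 TPM. The level of Kdr was 2.21 and 2.72 times that of Flt1 and 9.33 and 7.97 times that of Flt4, so the order of the receptors was the same in both pools.

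Flt1 makes a membrane receptor and a shorter secreted form that lacks the membrane and kinase parts and traps VEGF. In the transcript tables the membrane form Flt1-202 (1333 codons) held 28.0% of the gene's expression in replicate 1 and 42.7% in replicate 2. The short form Flt1-203 (688 codons) held 28.9% and 28.8%, and the noncoding transcript Flt1-201 held 39.2% and 28.5%. The share of the short form was thus close in both pools, while the order of the other transcripts changed. The short form reads on from the last exon it shares with the membrane form into the intron, and the coding stretch this adds is shown because it is what tells both forms apart. It lies at chr5:147639133-147639224 on the minus strand of mm10, is 92 bases long and is intronic in Flt1-202. Capitals mark the GT at which the membrane form is spliced.
Flt1-203 stretch: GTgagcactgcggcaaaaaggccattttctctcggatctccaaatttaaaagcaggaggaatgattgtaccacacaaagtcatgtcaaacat

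The Tie receptors were both present. Tie1, the orphan receptor of the pair, was at 17.2 and 15.3 TPM. Tek (Tie2), which binds angiopoietins, was at 7.06 and 7.90 TPM, so Tie1 exceeded Tek 2.43 and 1.94 times. The ligand Apln of the apelin receptor, made by sprouting tip cells, was at 3.77 and 3.58 TPM, and its receptor exceeded it 8.94 and 10.9 times. Pdgfb, the endothelial signal that recruits pericytes, was the lowest endothelial gene at 1.93 and 2.49 TPM.

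The ETS transcription factors of the endothelium, which switch on many of the genes above, kept nearly constant proportions. Ets1 was at 29.1 and 31.1 TPM, Fli1 at 19.8 and 21.3 TPM, and Erg, the most endothelial of the group, at 5.96 and 6.28 TPM. Ets1 exceeded Erg 4.88 and 4.95 times, and Fli1 exceeded Erg 3.32 and 3.39 times. The Wnt7 receptor subunits differed from each other. Reck (chromosome 4, 43875530 to 43944806), which binds Wnt7 directly, was at 16.4 and 17.7 TPM. Gpr124 (chromosome 8, 27085583 to 27123436), which couples it to Frizzled receptors, was at 4.73 and 4.24 TPM, a 3.46- and 4.18-fold lower level.

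**Figure D2:**
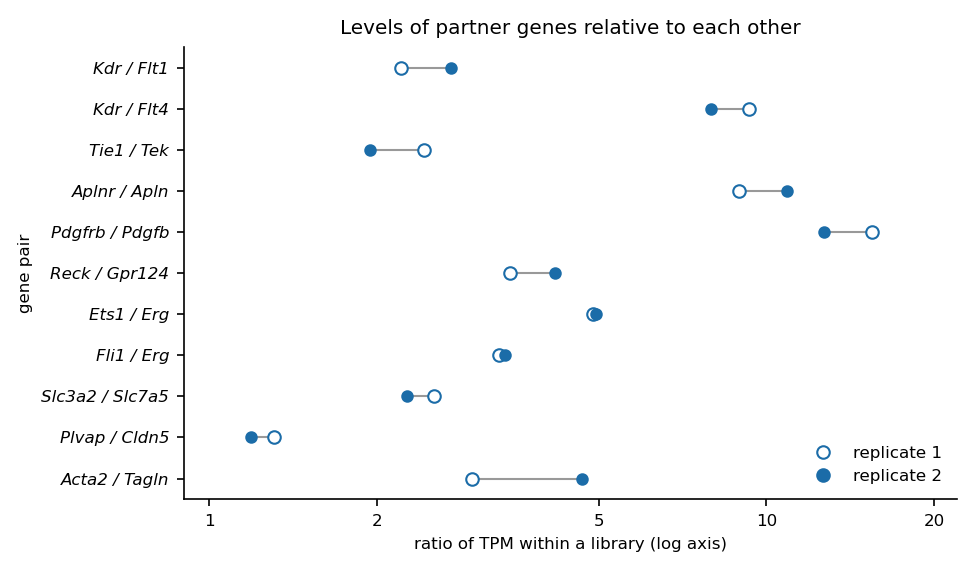
Ratio of the TPM of 2 related genes within each library, on a log axis, for 11 pairs. Open circles are replicate 1 and filled circles replicate 2. Ets1 to Erg, at 4.88 and 4.95, lies nearly on 1 spot, while Acta2 to Tagln, at 2.97 and 4.67, is spread widest.

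Of the tight junction genes, Cldn5, Esam and Tjp1 stood at like levels and Ocln was lower. Cldn5 (chromosome 16, 18776847 to 18778262), the claudin that seals the barrier, was at 24.5 and 28.4 TPM. The endothelial adhesion molecule Esam was at 25.8 and 26.4 TPM, and the scaffold protein Tjp1 (ZO-1) at 23.6 and 25.2 TPM. The ranges of Cldn5 and Esam over the pools overlapped. Ocln, a membrane protein of tight junctions that is also common in epithelia, was at 6.62 and 5.17 TPM, and Cldn5 exceeded it 3.71 and 5.49 times. Plvap, the marker of an immature and leaky wall, and Cldn5 were both present, with Plvap 1.31 and 1.19 times as high. Both are levels of the whole tissue, which also held markers of choroid plexus and meninges, so the ratio is no measure of barrier maturity.

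Tjp1 has forms with and without an alternatively spliced stretch, the alpha motif, and endothelial cells are known to favour the form without it while most epithelia favour the form with it. The transcript Tjp1-202 (1745 codons) held 65.2% and 68.4% of Tjp1 expression. Tjp1-201 (1685 codons) held 17.1% and 14.4%, and the noncoding Tjp1-203 held 15.9% and 15.6%. The coding stretch of Tjp1-202 that Tjp1-201 lacks is shown because it tells both forms apart. It is 1 coding exon of 240 bases at chr7:65314093-65314332 on the minus strand of mm10. The codon totals of both forms differ by less than this stretch holds, so it is not their only difference. Since Tjp1 is also made outside vessels, the shares are those of the whole tissue.
Tjp1-202 stretch: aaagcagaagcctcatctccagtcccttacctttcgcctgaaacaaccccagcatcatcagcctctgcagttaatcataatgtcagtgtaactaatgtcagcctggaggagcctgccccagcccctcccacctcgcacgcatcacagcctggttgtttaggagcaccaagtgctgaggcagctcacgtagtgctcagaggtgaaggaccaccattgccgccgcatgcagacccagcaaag

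Most barrier transporters were expressed at moderate levels and Abcb1a was under 1 TPM. Slc3a2 (chromosome 19, 8706882 to 8723369), the heavy chain of amino acid exchangers, was the highest at 60.7 TPM in both pools, from 2909 and 2682 counts, a match that is no measure of its error. Its light chain Slc7a5 (LAT1), which carries large neutral amino acids, was at 23.9 and 26.8 TPM, and Slc3a2 exceeded it 2.53 and 2.27 times. The efflux pump Abcg2 was at 28.3 and 26.0 TPM. Mfsd2a (chromosome 4, 122946850 to 122961188), the lysolipid carrier that also holds down transcytosis, was at 23.3 and 22.9 TPM. The thyroid hormone carrier Slco1c1 was lower, at 4.53 and 5.95 TPM. Of its transcripts, the coding Slco1c1-201 held 67.9% and 67.8%, and the rest belonged to Slco1c1-202, which is annotated as subject to nonsense-mediated decay.

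Abcb1a (chromosome 5, 8660077 to 8748575), the P-glycoprotein pump of the mature barrier, was at 0.38 and 0.69 TPM. These values rest on 35.1 and 43.1 expected counts, with exact 95% Poisson intervals of 24.4 to 48.7 and 31.2 to 58.1 that overlap and cover counting error only. It was the 1 gene of the 37 whose counts were not whole numbers, since fragments are shared with its near-identical copy Abcb1b. Together both copies held 60 and 59 counts. The share of each copy is therefore uncertain, while the low sum is not affected by the division. Of the Abcb1a transcripts, the coding Abcb1a-201 was at 0.38 and 0.29 TPM and the intron-retaining Abcb1a-202 at 0 and 0.40 TPM.

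Mural cell genes spanned a wide range of levels. The smooth muscle actin Acta2 (chromosome 19, 34241090 to 34255590, minus strand) had the highest mean of all 37 genes, at 40.5 TPM in the first pool but 83.3 TPM in the other. Pdgfrb, the PDGF-B receptor that defines pericytes and is also found on mesenchyme, was at 29.8 and 31.6 TPM and exceeded its ligand gene Pdgfb 15.5 and 12.7 times. The actin-binding protein Tagln (SM22) was at 13.7 and 17.8 TPM. The pericyte proteoglycan Cspg4 (NG2) was at 4.01 and 4.99 TPM, the signalling regulator Rgs5 at 4.72 and 4.24 TPM, the aminopeptidase Anpep (CD13) at 2.15 and 2.54 TPM, and the potassium channel subunit Abcc9 (SUR2) at 1.67 and 2.28 TPM. Pdgfrb exceeded Rgs5 6.32 and 7.44 times and Cspg4 7.44 and 6.32 times. The ranges of Cspg4 and Gpr124, neighbours in the order of all genes, overlapped, as did those of 20 of the 36 neighbouring pairs, so much of the order is not settled by 2 libraries. At the top, Acta2 stood below Slc3a2 and Egfl7 in replicate 1 and above both in replicate 2.

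The libraries were then compared gene by gene, with counts scaled by TMM (trimmed mean of M-values) and log2 ratios given as replicate 2 minus replicate 1. The vessel genes differed between the pools by about as much as all genes tested, which were not matched to them for level. Acta2 stood apart from the rest. By the two-sided exact binomial test, which allows for counting error only, 10 of the 37 genes (27.0%) differed at an adjusted p below 0.05, against 20.4% of the 19209 genes tested. Of these, 7 were higher in replicate 2 (background 10.7%) and 3 were lower (background 9.68%). The median absolute log2 ratio was 0.12 over the 37 genes and 0.13 over all genes tested. When the spread between the libraries was added with the edgeR exact test (common coefficient of variation 9.02%), only Acta2 differed, against 1.57% of all genes (0.942% higher and 0.625% lower in replicate 2).

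Acta2 counts were 1293 in replicate 1 and 2452 in replicate 2, a log2 ratio of 1.02 (2.03-fold), with an adjusted p of 4.56e-97 by the exact binomial test and 2.18e-05 by edgeR. The dispersion behind the edgeR value came from the same 2 libraries. The other mural genes called higher by the binomial test were Abcc9 (230 and 290 counts, log2 ratio 0.43, adjusted p = 0.0053), Tagln (385 and 464 counts, 0.37, adjusted p = 0.00211) and Cspg4 (605 and 694 counts, 0.30, adjusted p = 0.00204). The median log2 ratio of the 7 mural genes was 0.30, and −0.0019 over all genes tested. Pdgfrb at 0.07, Anpep at 0.23 and Rgs5 at −0.17 did not pass. Scaling by the spike-ins moved the median of all genes to −0.37, and under it Acta2 was the only gene of the 37 called higher, while Cspg4 reversed to −0.07 (adjusted p = 0.458 by the binomial test).

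Skeletal muscle genes differed between the pools in the same direction as Acta2. Acta2 itself is known to be made for a time in embryonic skeletal muscle as well as in vessel walls. All 10 skeletal muscle genes were higher in replicate 2 by both tests, with a median log2 ratio of 2.24. Their summed level went from 65.4 to 312 TPM, led by Actc1 (27.4 and 112 TPM), Myl1 (8.83 and 42.9 TPM) and Acta1 (8.06 and 38.1 TPM), and the lowest was Myf5 (0.53 and 2.30 TPM). Of 12 other smooth muscle contractile genes 6 were higher and none lower by the binomial test, and 1 by edgeR (Tpm2), with a median log2 ratio of 0.33 and a summed level of 340 and 414 TPM. The highest 3 were Cnn2 (142 and 162 TPM), Myl9 (99.8 and 116 TPM) and Tpm2 (48.3 and 84.7 TPM), and the lowest was Myh11. Of 10 genes of meninges and mesenchyme 9 were higher by the binomial test, where 10.7% of all genes were, and 0 by edgeR. Their sum was 1482 and 1912 TPM and their median log2 ratio 0.27, led by Col3a1 at 448 and 603 TPM. Of 5 cardiac genes 4 were tested and Tnnt2, a troponin that embryonic skeletal muscle also makes, was called higher by both tests (4.15 and 14.9 TPM). Nppa was at 1.54 and 1.32 TPM, and Myl7, Myh6 and Nkx2-5 did not reach 1 TPM in both libraries. These lists were chosen with earlier results known, and the medians of the smooth muscle and meningeal lists are smaller than the shift of all genes under spike-in scaling. The part of these tissues in the Acta2 difference was not tested. Without Acta2 and Tagln the summed level of the mural genes was 42.4 and 45.6 TPM, against 96.5 and 147 TPM with them.

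**Figure D3:**
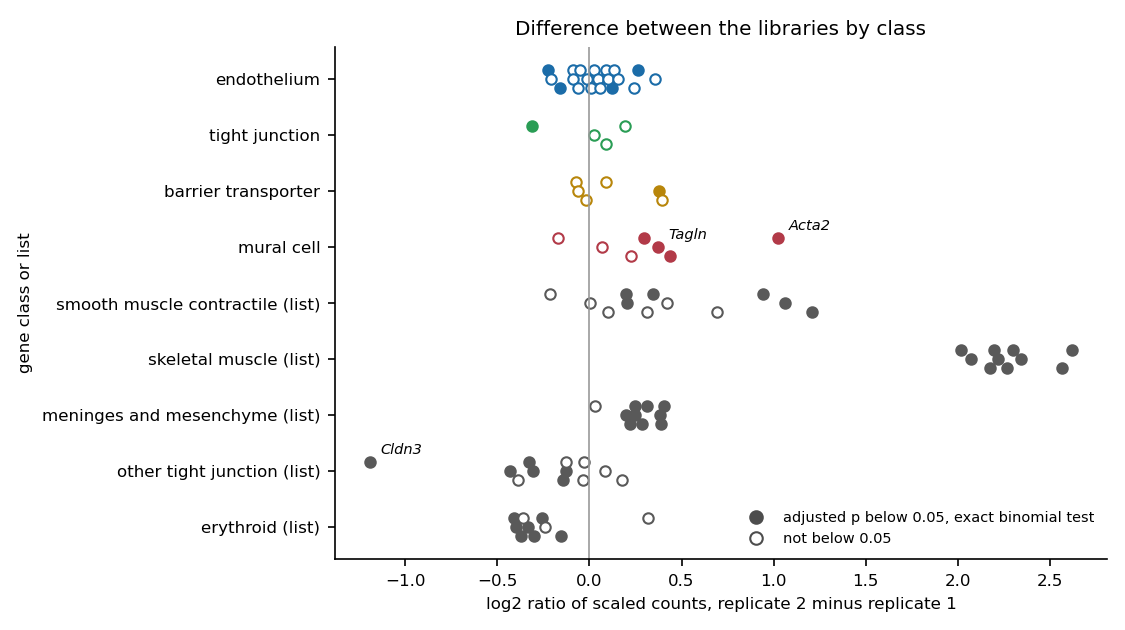
Log2 ratio of scaled counts, replicate 2 minus replicate 1, for each gene of the 4 classes and of 5 other lists. Filled circles passed an adjusted p of 0.05 in the exact binomial test and open circles did not. Endothelial genes lie between −0.23 and 0.36, Acta2 lies at 1.02 among the mural genes, and all 10 skeletal muscle genes lie above 2.0.

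Short stretches upstream of Acta2 are shown because it was the one gene of the 37 that differed by both tests. Muscle actin promoters are known to hold CArG boxes, bound by serum response factor. The 250 bases before the RefSeq start of Acta2 (GRCm38.p6) were searched for CC, then 6 bases of which at least 5 are A or T, then GG, a form that reads as such on either strand. This definition was chosen after the sequence was seen. It matched at 84 to 75 bases before the start (within chr19:34255438-34255467, minus strand) and at 34 to 25 bases before it (within chr19:34255388-34255417). GENCODE M21 starts the gene further upstream, so both lie in its first exon. Of 32851 windows of the same length 8.59% held at least 1 match and 0.670% at least 2. Of the 24 vessel genes in the promoter table, Egfl7, Eng, Kdr and Ocln had 1 match each and Acta2 had 2. With all 6 central bases A or T, as in the strict CArG box, 1.47% of windows and 0 of the 24 matched. Tagln was not in the table. A match is a run of letters and does not show binding. The matches are in capitals, each with 10 bases on either side.
Acta2 first match: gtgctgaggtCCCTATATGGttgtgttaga
Acta2 next match: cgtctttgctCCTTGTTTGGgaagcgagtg

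In the endothelium 4 of 20 genes were called by the binomial test, close to the 20.4% of all genes, and none by edgeR, and the median log2 ratio was 0.04. Vwf (0.26, adjusted p = 0.00473) and Aplnr (0.12, adjusted p = 0.0339) were higher in replicate 2, but under spike-in scaling both reversed, Vwf to −0.11 and Aplnr to −0.25, the latter called lower. Egfl7 (−0.23, adjusted p = 0.00811) and Tie1 (−0.16, adjusted p = 0.0413) were lower, and Tie1 did not pass without the filter on low counts (adjusted p = 0.053, binomial test). The other 16, Kdr, Eng, Emcn and Plvap among them, did not pass, with ratios from −0.21 for Icam2 to 0.36 for Pdgfb, whose counts were only 103 and 123. Of the 6 transporters Slco1c1 was higher (251 and 304 counts, 0.38, adjusted p = 0.0151), though not under spike-in scaling (0.0083, adjusted p = 0.992 by the binomial test), and no other passed. The summed level of the transporters was 141 and 143 TPM.

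Among the tight junction genes only Ocln was called, lower in replicate 2 (393 and 295 counts, −0.31, adjusted p = 0.0302 by the binomial test). Cldn5 at 0.19, Tjp1 at 0.09 and Esam at 0.03 did not pass. Of 12 other tight junction genes 6 were lower and none higher by the binomial test, where 9.68% of all genes were lower, and edgeR called 1 (Cldn3), with a median log2 ratio of −0.14. The highest were Jam3 at 107 and 105 TPM, Jam2 at 39 and 36.6 TPM and Cldn11 at 25.5 and 25.2 TPM, and the lowest was Marveld2 at 3.79 and 2.98 TPM. The epithelial claudin Cldn3, singled out after its values were seen, went from 14.9 to 6.60 TPM. The part of epithelial tissue in the Ocln difference was not tested.

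For 7 of the 37 genes the tables hold 1 transcript. Of the other 30, the leading transcript was the same in both libraries for 25. Over all 30, the share of the transcript with the highest mean share differed by a median of 2.71 percentage points. In 13 it held at least 80% in both. Slc3a2-201 held 77.9% and 78.1% of its gene. For Tek, Tek-203 held 85.7% in replicate 1 and 67.6% in replicate 2. Egfl7 was spread over 19 transcripts, with the coding Egfl7-202 at 34.8% and 41.6% and the intron-retaining Egfl7-213 at 18.4% and 17.8%. The leading transcript differed for Abcb1a, Anpep, Erg, Flt1 and Vwf. Anpep was split evenly between Anpep-201 (50.2% and 49.3%) and Anpep-202 (49.8% and 50.7%), which both encode 966 codons. For Vwf, the noncoding Vwf-209 of 456 bases led in replicate 1 with 36.45% and held 35.02% in replicate 2. Its shares rest on only 22.46 and 20.12 counts. The full-length Vwf-203 of 8834 bases went from 33.4% to 0%. A transcript of 8817 bases, not in the annotation used for names, went from 4.96% to 50.4%. By the authors' posterior means Vwf-203 held 22.6% and 18.2%, and the transcript of 8817 bases 10.3% and 24.2%. The counts behind such near-equal transcripts depend on how the authors' model divides shared fragments.

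For Vwf and Flt1 the counts and the TPM differed. For Vwf the counts were called higher in replicate 2 (698 and 780), yet its TPM was 9.10 and 9.20. For Flt1 the count ratio was only −0.06 (974 and 869 counts, adjusted p = 0.585 by the binomial test), yet its TPM was 11.5 and 9.48. The cause was not tested.

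**Figure D4:**
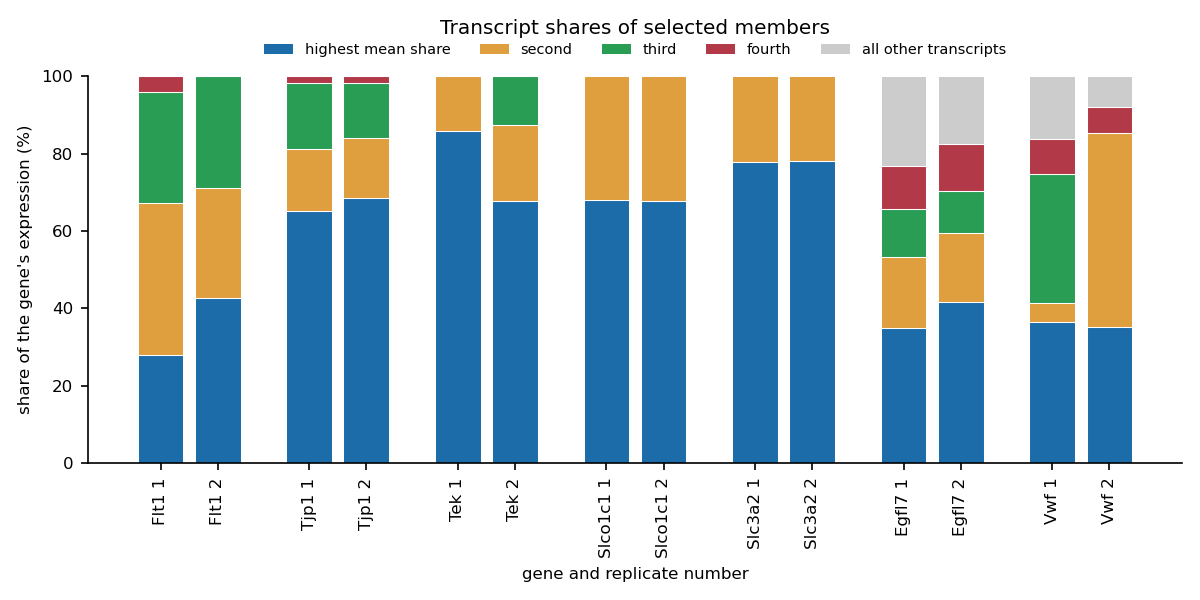
Share of a gene's expression held by each transcript in percent, for 7 genes with 1 bar for each library. Colours give the transcripts in order of mean share, and grey holds all others. The bars of Slc3a2 and Slco1c1 nearly match between libraries, Flt1-202 goes from 28.0% to 42.7%, and the bars of Vwf exchange 1 long transcript for another.

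The partners of the vessel genes were read from lists of pathway genes, with calls by the binomial test unless edgeR is named. Over all genes tested this test called 10.7% higher and 9.68% lower. Of all Ensembl genes 35.5% were detected, and of protein-coding genes 63.0%. The counts for each list here and in the next paragraphs are to be read beside these shares. Of 6 VEGF ligands and coreceptors all were detected and 1 was called, higher. Nrp2 (35.6 and 36.9 TPM), Vegfb (30.2 and 26.0 TPM) and the called Nrp1 (23.6 and 29.7 TPM) led, and Vegfa, the ligand of Kdr and Flt1, was lowest at 3.29 and 3.36 TPM. Of 6 angiopoietin signalling genes 5 were detected and Angpt1, the activating ligand of Tek, was called higher (9.71 and 11.8 TPM). Of 10 genes of the Wnt7 barrier pathway all were detected, 1 was higher and 2 were lower. Ctnnb1 (beta-catenin) was at 463 and 456 TPM, the ligand Wnt7b at 61.0 and 60.0 TPM, Tnfrsf19 at 38.3 and 36.3 TPM and the lowest, Lrp5, at 3.20 and 3.05 TPM. Wnt7b thus stood above its receptor parts Reck and Gpr124 in both pools. These are levels of the whole tissue, not of the endothelium.

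Of 12 other endothelial transcription factors 11 were detected, 1 was called lower and none higher. Sox18 was at 17.4 and 17.7 TPM and Elk3 at 14.2 and 16.0 TPM, while the early specifier Etv2 had 0 counts in both libraries, which allows up to 0.167 and 0.181 TPM (3 counts each). The one called lower was Gata2 (19.4 and 15.0 TPM), which neural cells of the hindbrain also use. Of 12 other endothelial adhesion genes 10 were detected and 2 were called higher, Vcam1 (64.2 and 68.9 TPM) and, named outside the rule after its values were seen, the endothelial cadherin Cdh5 (13.2 and 16.7 TPM). The inflammatory selectin Sele had 0 counts in both, which allows up to 0.0562 and 0.061 TPM. Of 11 artery, vein and lymphatic genes all were detected, 3 were higher and 2 lower (10.7% and 9.68% of all genes). They were led by Nr2f2 (83.7 and 76.7 TPM), which is also neural. Of 5 caveolar genes all were detected and Cavin1 was called higher (41.9 and 51.1 TPM).

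Of 15 other barrier transporters 12 were detected and 14 tested, with 2 higher and 2 lower. The highest were Abcc5 (119 and 119 TPM), the endocytic receptor Lrp1 (89.8 and 91.9 TPM) and the glucose carrier Slc2a1 (95.7 and 84.3 TPM, called lower). The organic anion carrier Slco1a4 of the mature barrier had 3 and 4 counts, 0.15 and 0.08 TPM, which puts it with Abcb1a at the low end. Of 13 other mural cell genes 11 were detected and 12 tested, with 3 higher and 2 lower. Nes (108 and 121 TPM) and Vtn (128 and 95.9 TPM) led and are also made by neural or other cells, and the pericyte gene Higd1b had 1 and 0 counts. Of 12 PDGF, TGF-beta and Notch signalling genes all were detected, 2 were higher and 2 lower. Of 10 basement membrane genes 7 were higher and 1 lower by the binomial test (10.7% and 9.68% of all genes), and edgeR called 0 higher and 1 lower. They were led by Sparc at 640 and 648 TPM and Col4a1 at 120 and 126 TPM. Outside the muscle lists, edgeR called 3 genes of the lists: Cldn3 and Lama5 (7.12 and 4.69 TPM) as lower, and Des, an intermediate filament of muscle and pericytes named after its values were seen, as higher (1.91 and 8.45 TPM).

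Genes of blood and neural tissue were read from the same fit. Of 10 erythroid genes 7 were lower in replicate 2 and none higher by the binomial test, and none passed by edgeR, with a summed level of 20025 and 15898 TPM. None of 8 microglia and macrophage genes was called by either test. By the binomial test 3 of 7 choroid plexus genes were higher and 2 lower, 5 of 8 neuronal genes were higher and 2 lower, and 4 of 8 progenitor genes were lower. By edgeR 0 genes of these 3 lists were called, and the binomial test called 20.4% of all genes. The summed level of the 20 endothelial genes was 352 and 351 TPM in the same pools. The sources used here do not say if strand was kept, and 6 of the 37 genes overlap exons of a gene on the opposite strand. For Eng this is Fpgs (16.4 and 15.8 TPM), for Egfl7 it is Agpat2 (10.7 and 9.53 TPM), for Gpr124 it is Brf2 (14.1 and 16.5 TPM) and for Tagln it is Pcsk7 (17.6 and 17.1 TPM). Abcb1a and Abcc9 overlap noncoding genes. Values of these 6 genes may hold fragments of their neighbours. Of the 4 coding neighbours, only Brf2 stood above the gene it overlaps in both libraries.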

How the data were processed

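RNA was measured in 2 libraries of 1 group. The authors deposited gene and transcript tables on mm10, with GENCODE M4 named in the accompanying notes. Aligner and quantifier: not given in the sources used here. Per the file headers, the deposited values are expected counts (estimated fragments), TPM and FPKM, and each transcript's share of its gene as a percent. Gene names, coordinates and transcript sequences were taken from GENCODE M21 (also mm10). Entries that name no gene held 0.000107% and 0.000114% of counts and were left out, and spike-ins held 3.41% and 4.36% of counts. Spike-ins held 8.39% and 10.9% of TPM. The TPM given here keep them in the total unless said otherwise, so the levels of genes are lowered more in replicate 2. The 39 genes and all other lists were chosen with earlier results of these data known. All 39 are accounted for, and of each other list the 3 genes of highest mean TPM and the lowest may be named.

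Expected counts were rounded, genes with 10 or more counts summed received TMM factors (edgeR 4.0.16 under R 4.3.3), and the exact binomial test of scipy 1.17.1 (two-sided) compared the libraries, Benjamini-Hochberg adjusted over 19209 genes. Tested on simulated data for this comparison, 199 of 200 genes changed 2-fold were recovered and 11 unchanged genes were called. The simulated counts held counting error only, and the changed genes were drawn from those with 200 or more counts summed. The low number of false calls therefore does not carry over to the real libraries. edgeR's quasi-likelihood test needs replicated groups and was not used. The edgeR exact test took 1 common dispersion. The libraries differed beyond counting error (chi-square of 8.27 for each degree of freedom), so they are not 1 library deposited again. Other scalings (DESeq2 1.42.0 size factors, totals, spike-ins), no filter, posterior mean counts, FPKM, other thresholds and a pseudocount of 0.1 were tried. Promoter sequence came from RefSeq (GRCm38.p6).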

Additional observations from a re-analysis of the deposited data

How the results depend on the processing

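No paired analysis was possible because the labels give 1 group with 2 replicates. Leaving out a library leaves no comparison between libraries. With 1 library alone, which is by construction an end of the range of both, the median endothelial gene ranged from 16.4 to 16.6 TPM, tight junction gene from 24.1 to 25.8, transporter from 23.6 to 24.4 and mural gene from 4.72 to 4.99 TPM, the endothelial minus mural difference from 1.53 to 1.62, and 36 genes were detected in each. FPKM, a smaller unit, gave class medians of 9.80, 14.8, 14.3 and 2.88 FPKM in that order and a difference of 1.48. TPM rescaled without spike-ins gave 18.3, 27.6, 26.6 and 5.38, and posterior mean TPM gave 16.2 for the endothelium. A pseudocount of 0.1 gave a difference of 1.74. Without Acta2 and Tagln, an alternative chosen after seeing the data, the mural median was 4.12 TPM. Detected genes numbered 34 at 2 TPM and 37 with posterior mean TPM.

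The edgeR exact test called 301 genes (181 higher, 120 lower) and 1 of the 37 (1 higher, 0 lower). Spike-in scaling called 13010 genes (326 higher, 12684 lower) and 27 of the 37 (1 higher, 26 lower), since it shifts every log2 ratio by −0.37. By construction it reversed the ratio of 19 genes: Kdr −0.36, Flt4 −0.13, Tek −0.23, Emcn −0.35, Erg −0.32, Fli1 −0.21, Ets1 −0.28, Vwf −0.11, Plvap −0.31, Reck −0.27, Aplnr −0.25, Pdgfb −0.013, Cldn5 −0.17, Esam −0.34, Tjp1 −0.28, Slc7a5 −0.28, Pdgfrb −0.30, Cspg4 −0.070, Anpep −0.14. Under the other scalings and posterior mean counts no ratio reversed. Fli1 passed with DESeq2 size factors (adjusted p = 0.0484) and Tie1 did not without the count filter (adjusted p = 0.053, binomial test). With posterior means the share of the leading transcript moved beyond the spread of both libraries for 17 of 30 genes. Counts of 103 to 3004 for each gene and library, outside Abcb1a, limit small differences, and the spread over 2 libraries is itself poorly known.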
